A study of Arabidopsis thaliana with 16 samples.

Results

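The LCR and SCRL genes of Arabidopsis thaliana encode small cysteine-rich proteins, and they were examined here for regions occupied by ENAP1, a nuclear protein that interacts with EIN2 of the ethylene pathway. Members were all protein-coding genes whose annotated symbol was LCR or SCRL followed by digits. There were 107 of them among 27444 protein-coding genes on the 5 nuclear chromosomes, 80 named LCR and 27 named SCRL. Another 2 genes with such symbols are annotated as transcribed pseudogenes and were left out.

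ENAP1 was mapped by chromatin immunoprecipitation followed by sequencing (ChIP-seq) with an antibody against green fluorescent protein. Seedlings were grown in darkness for 3 days at 24 °C, then kept for 4 hours in air containing 10 ppm ethylene or in hydrocarbon-free air alone, and were used whole. The ein2 line lacks a working EIN2 and does not respond to ethylene, and Col-0 is the wild-type accession. The 4 conditions, namely ein2 in ethylene, ein2 in air, Col-0 in ethylene and Col-0 in air, had 2 ChIP and 2 input samples each, 16 in all. The sources used here do not give the ein2 allele, the construct behind the tagged ENAP1 or its promoter. No sample is a ChIP of plants without tagged ENAP1, so signal from the antibody alone cannot be told apart from occupancy. The labels name 1 peak set for both ChIP samples of a condition, so no value has a replicate spread and conditions are set side by side without a test. The files used here list peaks rather than read counts, which leaves the depth of each library unknown. ChIP libraries of ethylene-treated plants carry the letter C in their numbers and those of air-treated plants do not, and any handling difference behind this cannot be told apart from the treatment.

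LCR stands for low-molecular-weight cysteine-rich and SCRL for SCR-like. SCR is the pollen ligand by which Brassica and its relatives recognise and reject their own pollen, and the LCR proteins resemble pollen coat proteins. Members of both families are short secreted peptides whose conserved cysteines form disulphide bridges, as in plant defensins, and many are known to be expressed in flowers, pollen or seeds. Expression was not measured in these samples. Their genes are short and often lie in tandem, which matters when a region is assigned to a gene. The median annotated span of a member was 584 bp (270 to 1558 bp), against 2078 bp over all protein-coding genes.

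Few members had an ENAP1 region, defined as a peak that overlapped the gene's span with 1000 bp on each side. In ein2 ethylene 8 of 107 members had one (7.48%, exact 95% Clopper-Pearson interval 3.28 to 14.2), against 22.4% of all protein-coding genes. In ein2 air the count was 3 of 107 (2.80%, interval 0.582 to 7.98), against 16.9% of all genes. In Col-0 ethylene it was 4 of 107 (3.74%, interval 1.03 to 9.30), against 26.2%, and in Col-0 air 7 of 107 (6.54%, interval 2.67 to 13.02), against 35.5%. These intervals treat genes as independent and cover counting error only. Over the 4 sets together, 9 members had a region in at least 1 set and 98 had none in any, whereas 39.7% of all protein-coding genes had a region in at least 1 set.

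Short genes had fewer regions in general, and part of the gap to all genes went with span. Among 4224 other protein-coding genes of 388 to 1095 bp, the middle range of member spans, 11.6% had a region in ein2 ethylene, 8.55% in ein2 air, 14.96% in Col-0 ethylene and 19.3% in Col-0 air. Each of these shares lay above the members' share in the same set. These genes were still longer than the members, with a median span of 796.5 bp against 584 bp. Had the members carried the share of other genes in their own span quartile, 12.5 of them would have had a region in ein2 ethylene, 9.70 in ein2 air, 16.2 in Col-0 ethylene and 20.9 in Col-0 air. The observed counts were 8, 3, 4 and 7 in the same order. The intervals above hold the share of genes of similar span in ein2 ethylene, and end below it in the other 3 sets. With a −log10 q (the peak caller's p-value of a region adjusted for multiple testing) of at least 13.4 required in every set, the highest of the 4 sets' minima, 3 of 107 members had a region in ein2 air (interval 0.582 to 7.98), against 7.01% of genes of similar span, so that this interval then held the share in ein2 air too. Over the 4 sets together, 8.41% of the members and 23.01% of the genes of similar span had a region.

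No region had its summit, the position of highest signal, inside any member. With 0 of 107 in each set, a count of 3 would correspond to 2.80%, and the exact 95% interval runs from 0 to 3.39%. A summit lay inside the span of 3.84% of the other genes of similar span in ein2 ethylene, 3.12% in ein2 air, 4.97% in Col-0 ethylene and 6.37% in Col-0 air, and over all protein-coding genes the shares were 11.5%, 9.32%, 13.7% and 19.2%. The members' interval holds the share of genes of similar span in ein2 air and ends below it in ein2 ethylene and both Col-0 sets. These genes were longer than the members (median 796.5 against 584 bp), and no share weighted by span is given for summits inside. Not even the edge of a region reached into a member, the closest being 144 bp away at LCR45 in Col-0 air.

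**Figure D1:**
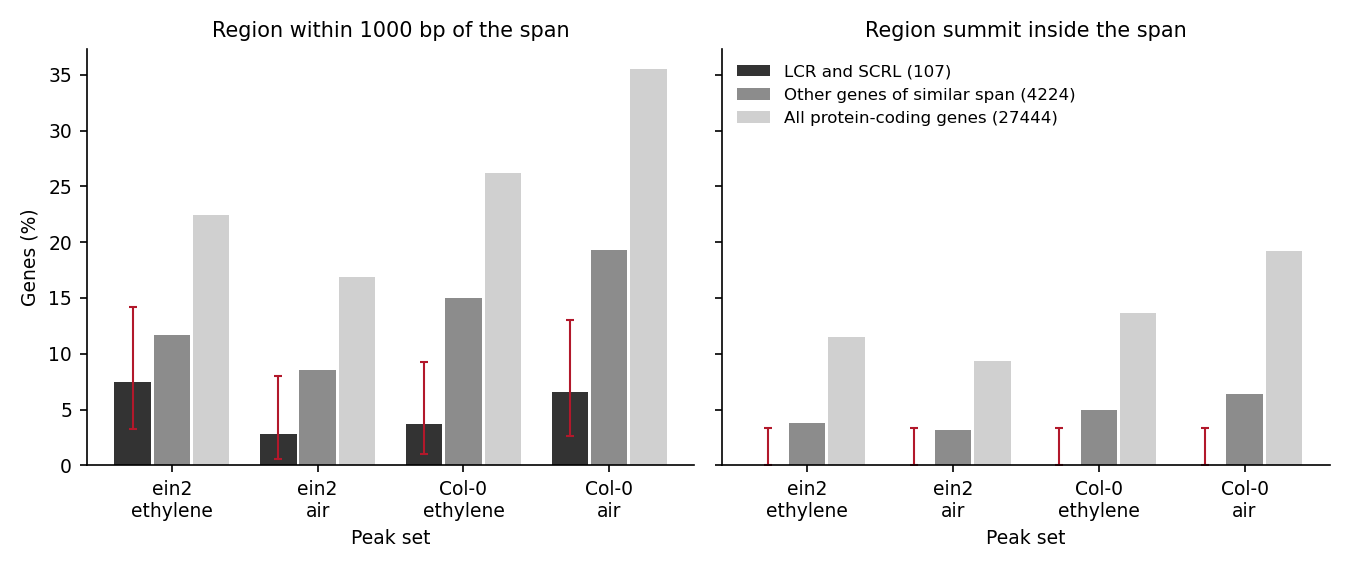
Percent of genes with a region within 1000 bp of the span (left) and with a region summit inside the span (right) in each of the 4 peak sets, for the 107 LCR and SCRL genes, 4224 other genes of similar span and all 27444 protein-coding genes. Red bars are exact 95% intervals of the members' shares; the members' bars are the lowest of the 3 in every set on the left, and at 0 in every set on the right.

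The 9 members with a region were LCR1, LCR3, LCR31, LCR45, LCR53, LCR60, LCR75, LCR82 and SCRL22. Their windows held 22 regions over the 4 sets, and each region lay in the window of 1 member only. Each region was placed at the protein-coding gene that held its summit, or else at the gene with the nearest edge within 1000 bp. By this rule 14 of the 22 regions lay inside a gene of another kind, 4 lay just outside one, 1 was near no gene, and 3 were placed at a member. Those 3 were all at LCR60. Of genes of similar span with a region, between 45.1% (Col-0 ethylene) and 49.6% (ein2 ethylene) had a region placed at themselves, and of all protein-coding genes between 65.9% and 69.1%. Among the members this was 1 of 8 in ein2 ethylene, 0 of 3 in ein2 air, 1 of 4 in Col-0 ethylene and 1 of 7 in Col-0 air. Counted over all protein-coding genes, with a region or without, 15.2% had one placed at themselves in ein2 ethylene, 11.2% in ein2 air, 17.3% in Col-0 ethylene and 24.5% in Col-0 air, and over genes of similar span 5.78%, 4.14%, 6.75% and 9.30%.

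LCR60 (AT2G20208, chromosome 2) was the only member to which regions were placed. In ein2 ethylene the region spanned 8720268 to 8720458 of TAIR10, with its summit 443 bp from LCR60. In Col-0 ethylene it spanned 8720286 to 8720426, with its summit at 425 bp. In Col-0 air it spanned 8720232 to 8720473, with its summit at 447 bp, and ein2 air had no region there. The fold enrichment of ChIP signal over local background, the authors' value for each peak, was 3.02 in ein2 ethylene, 3.41 in Col-0 ethylene and 8.32 in Col-0 air. Fold depends on the depth and background of each set and is therefore read only as a rank within its set. Regions of higher fold made up 30.2% of the ein2 ethylene set, 64.4% of the Col-0 ethylene set and 4.57% of the Col-0 air set, so that the region was among the strongest of Col-0 air and below the middle of Col-0 ethylene.

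The LCR60 regions lay in a stretch of 1674 bp without a protein-coding gene, between LCR60 and CLASP, which encodes a microtubule-associated protein. The near edge of CLASP lay 1232 bp from the summit in ein2 ethylene, 1250 bp in Col-0 ethylene and 1228 bp in Col-0 air. AT2G20210, which overlaps the far end of LCR60, lay 978, 960 and 982 bp from these summits. LCR60 was thus the nearest gene, but no gene edge lay within 425 bp of a summit. The gene table gives no strand, so whether this stretch is the promoter side of LCR60, AT2G20210 or CLASP was not determined.

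At 5 members the summit lay inside the adjacent gene in every set that had the region. LCR82 (AT2G04425, chromosome 2) had a region in all 4 sets, with the summit 96 bp inside NUDT5, a nudix hydrolase gene, in ein2 ethylene and ein2 air, 109 bp inside it in Col-0 ethylene and 107 bp in Col-0 air. The distance to LCR82 was 1064 bp in ein2 ethylene and in ein2 air, 1077 bp in Col-0 ethylene and 1075 bp in Col-0 air, so that only the flank of the peak entered the window. Its fold was 3.24 in ein2 ethylene, 6.45 in ein2 air, 6.33 in Col-0 ethylene and 7.44 in Col-0 air, with 21.6%, 4.83%, 7.28% and 7.55% of the regions of those sets higher.

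LCR45 (AT4G39917, chromosome 4) was the member closest to a summit, at 291 bp in ein2 ethylene, 288 bp in ein2 air, 286 bp in Col-0 ethylene and 299 bp in Col-0 air. All of these summits lay inside POR (PORCINO, tubulin-folding cofactor C), between 195 and 208 bp from its edge. Their folds were 2.07, 4.05, 5.72 and 4.73 in the same order of sets, and 91.5% of the ein2 ethylene regions but 11.6% of the Col-0 ethylene regions had a higher fold.

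LCR53 (AT3G61177, chromosome 3) had a region in ein2 ethylene and in Col-0 air, with both summits at position 22645564, inside AT3G61180 and 72 bp from its edge. LCR1 (AT5G48543, chromosome 5) had its regions in ein2 ethylene and Col-0 air too, with summits 830 and 822 bp away, deep inside HINT3, a histidine triad nucleotide-binding gene whose annotated end overlaps LCR1. LCR3 (AT5G47175, chromosome 5) had regions in Col-0 ethylene and Col-0 air. Their summits were 931 and 950 bp from LCR3, and 9 and 28 bp inside AT5G47170. At none of these 3 members was the member the closer gene.

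At LCR75 and SCRL22 the summit lay between the member and a neighbour, nearer to the neighbour. LCR75 (AT2G31957, chromosome 2) had regions with summits 902 bp away in ein2 ethylene, 959 bp in ein2 air and 921 bp in Col-0 air. The same summits were 70, 13 and 51 bp from CNX2, a gene of molybdenum cofactor synthesis. SCRL22 (AT4G33465, chromosome 4), the only SCRL gene with a region, had it in ein2 ethylene at 16102243 to 16102576. Its summit was 478 bp from SCRL22, 166 bp from the histone deacetylase gene HDA14 and 209 bp from AT4G33467, which overlaps SCRL22.

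LCR31 (AT1G28335, chromosome 1) had the remaining region, in ein2 ethylene at 9938744 to 9939126. Its summit was 1198 bp from LCR31 and 1008 bp from RLP4, a receptor-like protein gene, so it was placed at no protein-coding gene. An annotated long non-coding RNA gene, AT1G06147, held this summit.

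**Figure D2:**
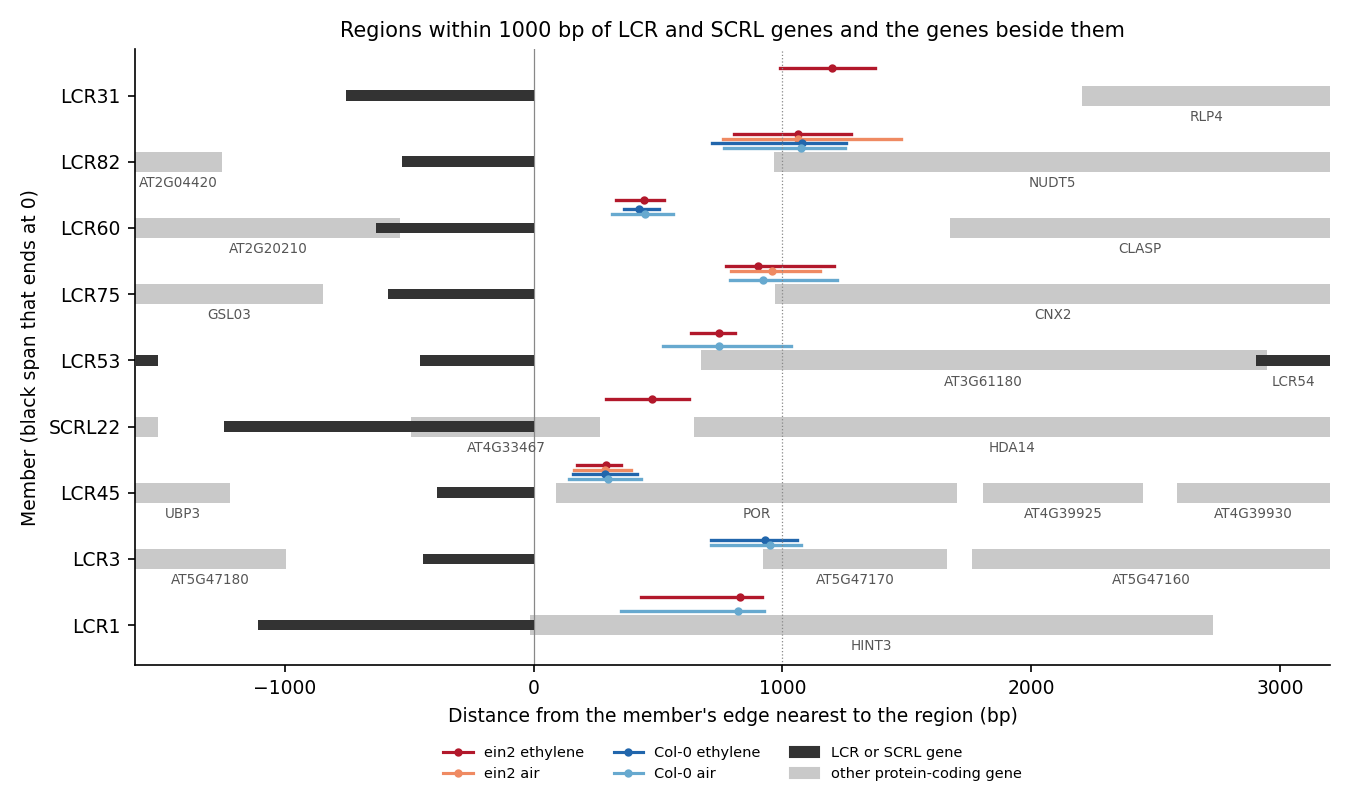
Position of each region within 1000 bp of an LCR or SCRL gene, in bp from the member's nearest edge, with members as thin black spans and other protein-coding genes in grey; some rows are mirrored so that the region lies to the right. Coloured lines are regions and dots their summits: no region touches a member, and in 7 of 9 rows the summit lies in or next to the neighbouring gene, the exceptions being LCR60 and LCR31.

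Between conditions, all regions of a member overlapped where it had regions in more than 1 set. Their summits lay within 57 bp of each other (LCR75, the widest). The same overlap is not given here for other genes. LCR45 and LCR82 had a region in all 4 sets, which is 1.87% of the members, against 12.8% of all protein-coding genes. LCR60 and LCR75 had one in 3 sets, LCR1, LCR3 and LCR53 in 2, and LCR31 and SCRL22 in ein2 ethylene only. Of the 27444 protein-coding genes, 1867 had a region in 3 sets, 2543 in 2 and 2972 in 1.

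Ethylene was compared with air within each line. In ein2, all 3 members with a region in air also had one in ethylene, and LCR1, LCR31, LCR53, LCR60 and SCRL22 had one in ethylene alone. In Col-0, all 4 members with a region in ethylene also had one in air, and LCR1, LCR53 and LCR75 had one in air alone. Of all protein-coding genes in ein2, 2219 had a region in ethylene alone and 701 in air alone, and in Col-0 these numbers were 695 and 3246. The weakest q value that the authors kept differed between sets, with a lowest −log10 q of 6.57 in ein2 ethylene, 10.9 in ein2 air, 10.8 in Col-0 ethylene and 13.4 in Col-0 air. With 13.4 required in every set, 3 members had a region in ein2 ethylene (LCR31, LCR75 and LCR82), 3 in ein2 air (LCR45, LCR75 and LCR82), 3 in Col-0 ethylene (LCR45, LCR60 and LCR82) and 7 in Col-0 air. At that minimum 10.4%, 14.3%, 22.2% and 35.5% of all protein-coding genes had a region in these sets.

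The lines were also compared within each treatment, using the same 4 sets. In air, LCR45, LCR75 and LCR82 had a region in both lines, none had one in ein2 alone, and LCR1, LCR3, LCR53 and LCR60 had one in Col-0 alone. In ethylene, LCR45, LCR60 and LCR82 had a region in both lines, LCR1, LCR31, LCR53, LCR75 and SCRL22 in ein2 alone, and LCR3 in Col-0 alone. Over all protein-coding genes in air, 56 had a region in ein2 alone and 5170 in Col-0 alone. In ethylene these numbers were 1655 and 2700, so that Col-0 alone was the more frequent among all genes and ein2 alone among the members. In ethylene at the common q minimum, ein2 alone held LCR31 and LCR75, Col-0 alone held LCR45 and LCR60, and both lines held LCR82. At that minimum ein2 alone was therefore no longer the more frequent among the members.

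Within their sets the regions near members covered a wide range of strength. Their median fold was 2.76 in ein2 ethylene, where the median of the whole set was 2.72, and 4.65 in ein2 air, where the set median was 3.72. In Col-0 ethylene it was 4.57 against a set median of 3.76, and in Col-0 air 4.86 against 4.34. The strongest by rank was that beside LCR60 in Col-0 air and the weakest that beside LCR3 in Col-0 ethylene, where 97.5% of the regions had a higher fold.

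**Figure D3:**
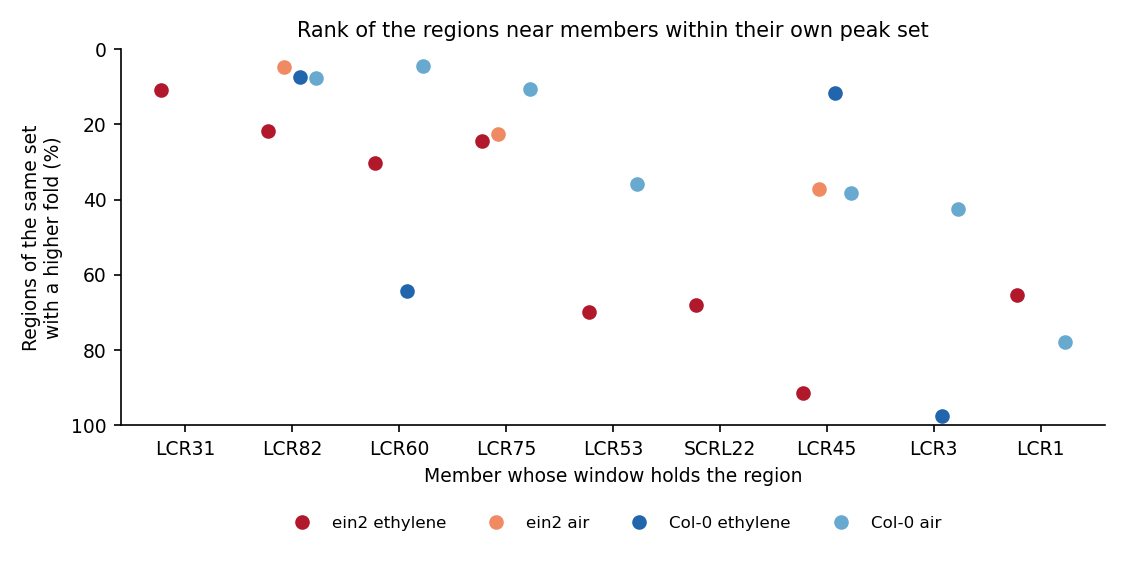
Percent of regions in the same peak set that have a higher fold than the region near each of the 9 members, with strong regions at the top; each dot is 1 region and its colour the set. The LCR60 region in Col-0 air is at 4.57% and the LCR3 region in Col-0 ethylene at 97.5%.

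Most members lay several kilobases from any region. The median distance from a member's span to the nearest summit was 8856 bp in ein2 ethylene, 13477 bp in ein2 air, 11574 bp in Col-0 ethylene and 7962 bp in Col-0 air. For other genes of similar span the medians were 8721, 12056, 7569 and 5057 bp, and for all protein-coding genes 6319, 9486, 5255 and 3046 bp. The members' median was thus close to that of similarly short genes in ein2 ethylene, and larger in both Col-0 sets. At 10000 bp, 58.9% of the members had a summit within reach in ein2 ethylene, 39.3% in ein2 air, 49.5% in Col-0 ethylene and 63.6% in Col-0 air, while 54.4%, 44.2%, 58.5% and 70.2% of genes of similar span did. At that distance the members' share was the higher of the pair in ein2 ethylene and the lower in the other 3 sets.

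**Figure D4:**
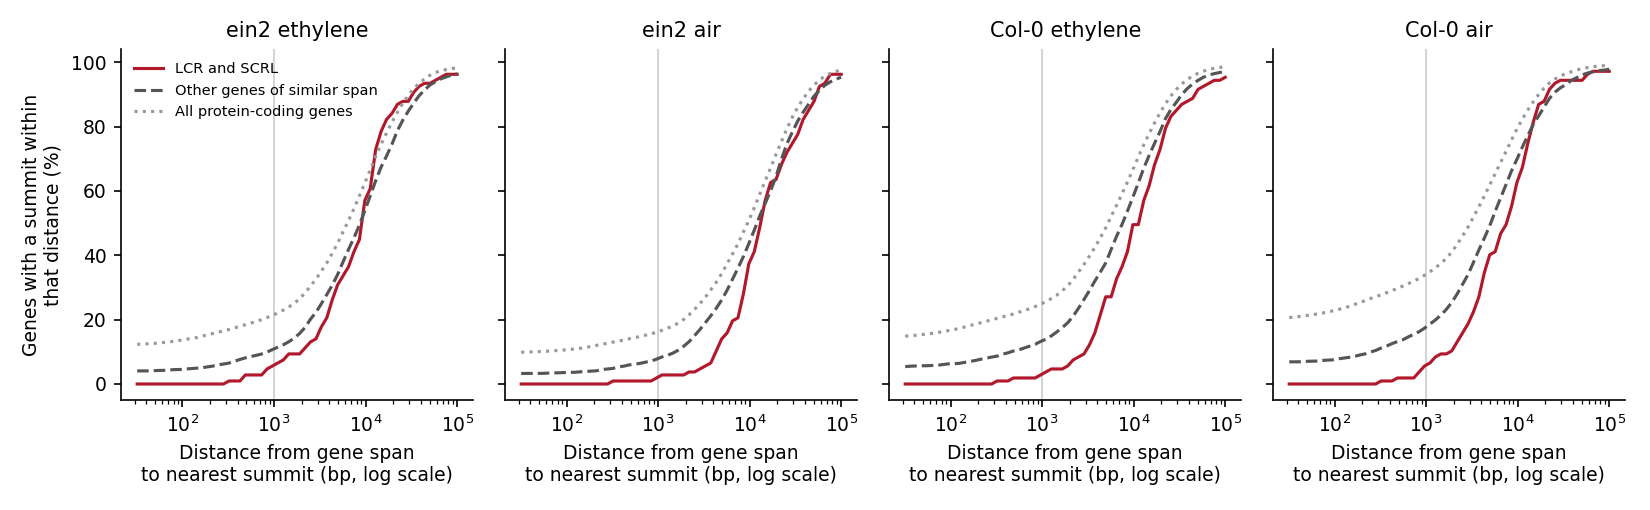
Cumulative percent of genes whose nearest region summit lies within a given distance of their span (bp, log scale), one panel per peak set, for the LCR and SCRL genes, other genes of similar span and all protein-coding genes; the vertical line marks 1000 bp. The members' curve is the lowest at 1000 bp in every panel. At 10000 bp it is above that of similar-span genes in ein2 ethylene and below it in the other panels.

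The 5 members closest to a summit among those without a region were LCR85, LCR5, LCR19, LCR39 and LCR34. Their nearest summits were 1254, 1278, 1309, 1713 and 1929 bp away, in Col-0 air for all but LCR19, whose nearest was in ein2 ethylene. Those near LCR85, LCR39 and LCR34 were placed at KT2/3, a potassium channel gene, AT3G23170 and EMB1691, and those near LCR5 and LCR19 at no gene within 1000 bp. At the other extreme, the nearest summit in any set was 159298 bp from LCR50, 130112 bp from LCR33 and 114285 bp from LCR47.

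SCRL genes and LCR genes differed little in span, with medians of 582 and 584.5 bp. Of the 27 SCRL genes, 1 had a region in ein2 ethylene and 0 had one in ein2 air, Col-0 ethylene or Col-0 air, where a count of 3 would be 11.1%. In Col-0 air the nearest summit to any SCRL gene was 3248 bp away. Of the 80 LCR genes, 7 had a region in ein2 ethylene, 3 in ein2 air, 4 in Col-0 ethylene and 7 in Col-0 air. In ein2 ethylene this was 3.70% of SCRL genes (interval 0.0937 to 18.97) and 8.75% of LCR genes (3.59 to 17.2). For 0 of 27 the exact 95% interval reaches 12.8%. Genes of similar span had shares of 11.6%, 8.55%, 14.96% and 19.3% in the same order of sets. The difference between SCRL and LCR genes was not tested.

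Some members lie in tandem groups. In the order of protein-coding genes, 39 members stood directly beside another member, in 14 runs, and 1 of the 39, LCR53, had a region in any set, at its run's outer end. Of the 68 members outside runs, 8 had one, against 39.7% of all protein-coding genes, and the difference between members in and outside runs was not tested. The longest run, 7 genes from LCR23 to LCR25 over 11277 bp of chromosome 4, had its nearest summit 3818 bp away in ein2 ethylene, 3832 bp in ein2 air, 2280 bp in Col-0 ethylene and 2314 bp in Col-0 air. The run SCRL8, SCRL6, SCRL4 and SCRL5 on chromosome 1 lay 8061, 35879, 16811 and 8070 bp from a summit in these sets. Chromosome 4 held 34 members, 2 with a region in any set, and chromosome 2 held 27, 3 with a region. Chromosomes 1, 3 and 5 held 13, 20 and 13 members, of which 1, 1 and 2 had a region. Of all protein-coding genes on a chromosome, between 38.2% (chromosome 4) and 41.3% (chromosome 3) had a region in any set.

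Genes beside the members carried regions more often than the members did. The nearest protein-coding genes that are no members on each side, with any that overlap a member, came to 166 genes. Of these, 21.1% had a region in ein2 ethylene (interval 15.1 to 28.1), 12.05% in ein2 air (7.52 to 18.0), 19.9% in Col-0 ethylene (14.1 to 26.8) and 27.7% in Col-0 air (21.1 to 35.2). Over all protein-coding genes the shares given above were 22.4%, 16.9%, 26.2% and 35.5%. The 166 genes were not matched to the members for span. Genes that overlap a member were left out of the following counts. In Col-0 air, 55 of the 107 members had a region within 1000 bp of a flanking gene, and 49 of these 55 had no region in their own window. In ein2 ethylene it was 34 of 41, in ein2 air 25 of 28 and in Col-0 ethylene 37 of 41. The matching share for the flanking genes of other protein-coding genes is not given here.

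Members were also divided by whether another gene stood close. A protein-coding gene other than a member reached into the 1000 bp window of 53 members, and 8 of these had a region in at least 1 set. Of the 54 members with no such gene in the window, 1 did, LCR31. This difference was not tested. Genes of similar span differed in the same direction, with a region in any set at 26.6% of those that had another protein-coding gene within 1000 bp and at 12.8% of those that had none, and over all protein-coding genes the shares were 42.8% and 27.1%. Members stood farther from other genes than is usual, with a median of 798 bp to the nearest protein-coding gene of any kind, against 190 bp over all protein-coding genes. A protein-coding gene lay within 1000 bp of 62.6% of the members and of 80.5% of all protein-coding genes.

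Other families of short secreted peptides were counted by the same rule. The RALF genes encode alkalinizing peptide signals, and of 34 such genes 4 had a region in ein2 ethylene, 4 in ein2 air, 5 in Col-0 ethylene and 8 in Col-0 air. The CLE genes encode peptide signals of meristems, and of 30 such genes 6, 3, 3 and 8 had one. In the same order of sets, 22.4%, 16.9%, 26.2% and 35.5% of all protein-coding genes had a region. Among genes of similar span the shares were 11.6%, 8.55%, 14.96% and 19.3%. In Col-0 air a summit lay inside 4 RALF genes (11.8%) and 2 CLE genes (6.67%). This was so for 19.2% of all protein-coding genes and 6.37% of genes of similar span. Of 6 plant defensin genes with a PDF symbol and 6 LTP lipid transfer genes, 0 had a region in any set. For 0 of 6 the exact 95% interval reaches 45.9%, so these counts say little. Among 6 GASA genes 1 had a region in ein2 air and 1 in Col-0 air, and of the EPF and EPFL genes 1 of 2 had one in all 4 sets.

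None of the 5 members that are themselves plant defensins had a region in any set, a count too small to say much. Over all protein-coding genes 39.7% had a region in any set, and over genes of similar span 23.01%. LCR66, LCR67, LCR68, LCR69 and LCR72 carry PDF names as synonyms, and their nearest summits in any set were 4500, 4782, 8847, 20368 and 3990 bp away. The 2 pseudogenes left out, SCRL28 and LCR71, had no region either. PDF1.2, PDF1.4, PDF2.1 and PDF2.5, whose synonyms are LCR names, are among the 6 PDF genes counted above as without a region.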

How the data were processed

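The submitters' processing notes name BWA, MACS2 2.1.0.20150603 and the TAIR10 build. The sources used here give neither the calling threshold nor the filters nor how replicates were combined. The deposited peak files give each peak's position, its fold enrichment over local background (a ratio computed by the authors) and its −log10 q value. Peak names are numbered up to 10236 in ein2 ethylene, 8191 in ein2 air, 12046 in Col-0 ethylene and 18877 in Col-0 air, while the files hold 4696, 3252, 5137 and 7852 peaks. Of 6 peak files, 2 (with 8 value columns) appear in no sample's labels and were left aside.

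Genes came from a RefSeq table of TAIR10.1, without strand. Its name differs from the build of the peaks, so no gene coordinate is printed. At least 71.3% of the summits in each set lay within 300 bp of a gene edge, against at most 28.3% after shifts of 2000 to 20000 bp. Overlap meant at least 1 bp. Python 3.11.15, pandas 2.3.3 and scipy 1.17.1 were used, and the overlap and placement steps were tested on simulated peaks. With no replicates per value, no test was run. Members, lists and alternatives were chosen with earlier results of these data known. Genes named are every member with a region, the genes those regions were placed at, the 5 nearest members without one, and members of the runs and of the defensin group, the last chosen after their values were seen.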

Additional observations from a re-analysis of the deposited data

Results flagged for a closer look

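The difference between ethylene and air in the number of members with a region had a different sign in the lines. It was 5 in ein2, with 8 members in ethylene and 3 in air, and -3 in Col-0, with 4 members in ethylene and 7 in air. The difference between the lines was not tested, since each condition has 1 peak set. Over all protein-coding genes the same differences were 1518 in ein2 and -2551 in Col-0. At the common −log10 q minimum of 13.4, the members' differences were 0 in ein2 and -4 in Col-0, and those of all genes -1076 and -3665.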

How the results depend on the processing

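No paired analysis was possible because each condition has 1 peak set for both replicates, and for the same reason no replicate could be left out. Of 66 recomputed counts, 42 stayed within 1.5 times the reported count and 24 did not. Those that did not include SCRL genes alone in every set, where a raw count over 27 genes was held against that over 107. Those that stayed include settings that could not change a set. These were a −log10 q of at least 5, Col-0 air at its own q minimum and ein2 air at its own 3252 regions. Of 12 recomputed shares, held to the narrower exact 95% interval of the reported share, 1 stayed and 11 did not. The 1 that stayed was Col-0 air at its own q minimum, so it could not have moved. At the highest of the q minima the ethylene minus air difference was 0 in ein2 and -4 in Col-0 for members, against 5 and -3 as reported, and for all genes in ein2 it changed sign, to -1076 against 1518. A −log10 q of at least 5 changed no count, as every set starts above it. The highest of the q minima left 3 members in ein2 ethylene, 1 member (LCR82) in all 4 sets, 3 other peptide genes in ein2 ethylene, and a share among genes of similar span of 5.02% in ein2 ethylene, 7.01% in ein2 air and 12.5% in Col-0 ethylene. A fold of at least 3 left 4 members in ein2 ethylene. With each set reduced to its 3252 regions of lowest q, used in place of p, 2 members had a region in Col-0 ethylene and 4 in Col-0 air. With no flank, 0 members had a region in any of the 4 sets. Of genes of similar span, 4.88% had one in ein2 ethylene, 3.81% in ein2 air, 7.67% in Col-0 ethylene and 8.71% in Col-0 air. Over all protein-coding genes the shares were 14.7%, 11.5%, 18.5% and 25.2%. A flank of 300 bp gave 2 in ein2 ethylene and 1 each in ein2 air, Col-0 ethylene and Col-0 air. A flank of 2000 bp gave 8 members in Col-0 ethylene and 14 in Col-0 air. In these sets 21.7% and 27.9% of genes of similar span then had a region, and 32.6% and 43.3% of all protein-coding genes. Counting only regions placed at the member gave 1 in ein2 ethylene, 0 in ein2 air, 1 in Col-0 ethylene and 1 in Col-0 air. SCRL genes alone gave 1, 0, 0 and 0 in the same order. The full range of member spans raised the share of other genes to 14.7% in ein2 ethylene, 10.8% in ein2 air, 18.3% in Col-0 ethylene and 23.9% in Col-0 air. With the nearest gene of any kind as neighbour, other members included, 14.0%, 7.25%, 12.1% and 19.8% of neighbours had a region. The reported shares leave members out as neighbours, so these settings differ in more than the kind of gene. Adding pseudogenes or genes with an LCR synonym, chosen after seeing the data, changed no count.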
